A study of Mus musculus with 4 samples.

Results

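The genes described here are the MYC network: the MYC paralogs Myc, Mycn and Mycl, their obligate partner Max, and the other transcription factors that pair with MAX, namely Mxd1, Mxd3, Mxd4, Mxi1, Mnt and Mga. They were chosen by name, as every probe set whose gene in the platform annotation is one of these 10, which gave 22 of the 22626 probe sets that are not controls and 10 of 12393 genes. The study read 4 Affymetrix arrays of R1 cells, an established line of mouse embryonic stem (ES) cells. In 2 samples the cells carried an shRNA (a short hairpin RNA that silences a gene) that targets Brg1, the motor subunit of SWI/SNF remodelling complexes and the product of Smarca4. In the other 2, the control, they carried an shRNA against GLUT4, the glucose transporter encoded by Slc2a4. All 4 samples were infected with lentivirus and harvested 67 h later, so infection and a hairpin are common to both groups. The labels do not say how many hairpins were used per target. The labels describe duplicate infections of the same line, so p-values measure the spread between these samples only.

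MYC proteins bind DNA as heterodimers with MAX, at the E-box sequence CACGTG and related sites, and recruit histone acetyltransferases and elongation factors that raise transcription of genes for growth and biosynthesis. The MXD proteins, MXI1 and MNT also pair with MAX at E-boxes, but recruit SIN3 and histone deacetylases and act as repressors. MGA is a large MAX partner that belongs to a form of Polycomb repressive complex 1, PRC1.6, which keeps germline genes silent in ES cells. In mouse ES cells Myc and Mycn are known to support self-renewal and proliferation.

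Smarca4, the gene targeted, fell 1.86-fold. Its signal was 652.1 and 621.5 on the knockdown arrays, against 1186.6 and 1213.6 on the control arrays, a difference on the log2 scale of -0.89 ± 0.08 (SE; adjusted p = 0.000232 with limma). Slc2a4 read 20.9 and 23.9 in the knockdown and 11.7 and 19.2 in the control, too dim to test. The deposited signals had been scaled to a common trimmed mean of 200.1 on each array. Over all genes tested, 9.33% were higher and 5.09% lower. Of 9 ES cell marker genes all were bright enough to test, 3 were higher and 0 lower, with log2 differences of -0.22 to 0.87. Pou5f1 read 2555.8 and 2417.8 in the knockdown against 2367.4 and 2579.2 in the control. Of 10 fibroblast markers, 8 lay below the filter on dim genes, among them Col1a1, Col1a2 and Col3a1 at 3.4 to 30.7 on every array, and their summed signal was 214.2 to 251.6 in the knockdown against 191.3 to 205.1 in the control. Of 9 primitive endoderm markers, 1 of 4 tested was higher and 0 lower, and Gata4 and Gata6 lay below the filter; the summed signal was 658.6 to 664.6 in the knockdown against 643.7 to 676.4 in the control. Of 9 trophectoderm markers, 3 of 5 tested were higher and 0 lower, with log2 differences of 0.19 to 1.04 (median 0.80). Cdx2 and Elf5 lay below the filter, and the summed signal was 1454 to 1561 in the knockdown against 902.1 to 955.1 in the control. The part of these marker changes in the results below was not tested. In RNA from whole cultures, a change in the number of cells of a type and a change in RNA per cell cannot be told apart.

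Within the network, Myc rose and Mycl fell in the knockdown, and no other member passed the test. Differences are given on the scale log2(signal + 20), knockdown minus control, and a gene was called at an adjusted p under 0.05 in a limma fit over all 7815 genes at or above a signal of 23.9. Of the 9 members tested, 1 was higher, 1 was lower and 7 did not pass. Over all genes tested, 14.4% were called, 9.33% higher and 5.09% lower, so with 9 members a count of 2 is close to that background. In 7 of the 9 the values of the 2 groups did not overlap, 5 above and 2 below. Over all tested genes, 60.2% were separated in this way, 34.3% above and 25.9% below. The 5 above include Mxd4, which reached the filter only through its knockdown arrays. Its place in these counts and in the median below supports nothing. The median log2 difference of the 9 was 0.17, against 0.04 over all tested genes. With the mean of all probe sets of a gene it was 0.05 over 8 tested members, against 0.02. With quantile normalization it was 0.15, against 0.015. The size of this excess thus rests on the choice of probe set. The fall of Mycl is the weaker of the 2 calls: leaving out knockdown replicate 1 ended it (adjusted p = 0.0681), as did leaving out control replicate 1 (0.0749) or 2 (0.124), while Myc kept its call without each array in turn.

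**Figure D1:**
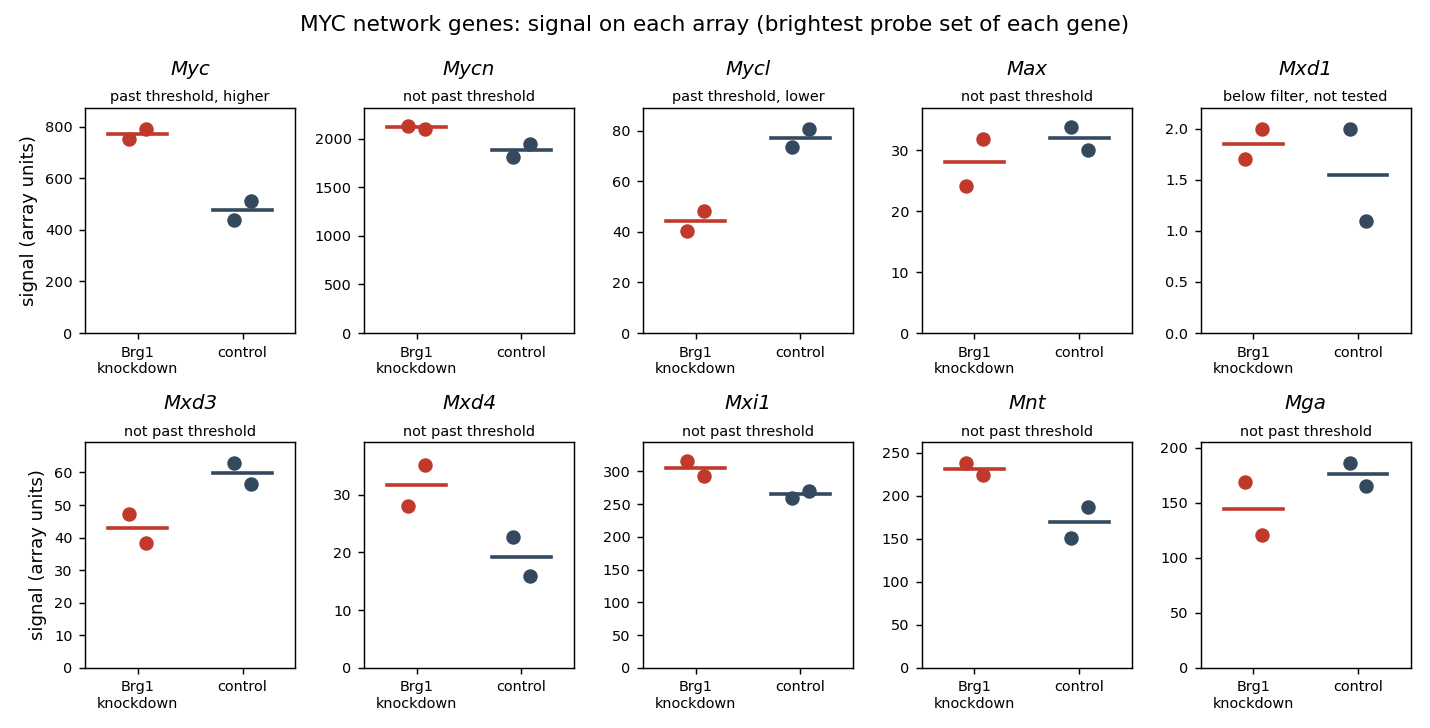
Signal of the brightest probe set of each MYC network gene on each array (points; vertical axes in array units from 0, a different range in each panel), Brg1 knockdown at left and control at right, with the mean of the 2 arrays as a bar. Myc lies higher on both knockdown arrays (753.1 and 791.8 in the knockdown, 439.4 and 511.1 in the control) and Mycl lower (40.5 and 48.3 in the knockdown, 73.8 and 80.6 in the control); Mxd1 stays at 2 units or less.

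Myc encodes c-MYC, the founding member of the family, and was read by a single probe set (1424942_a_at). Its signal was 753.1 and 791.8 on the knockdown arrays, against 439.4 and 511.1 on the control arrays. Both knockdown arrays lay well above both control arrays. Knockdown arrays averaged 772.5 ± 27.4 and control arrays 475.2 ± 50.7 (SD, n = 2 each). The log2 difference was 0.68 ± 0.10 (SE), or 1.6-fold, with a 95% interval of 0.47 to 0.90 (limma, adjusted p = 0.00219). Of the 7815 tested genes, 243 had a higher log2 difference and 4.04% differed by more in either direction. Leaving out each array in turn gave log2 differences of 0.58 to 0.79, with adjusted p between 0.000191 and 0.00645. Myc is also a known target of STAT3, downstream of the cytokine LIF, and of ERK signalling, so it belongs to the target genes of those pathways too.

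Mycn encodes N-MYC, which stands in for c-MYC in many embryonic cells. Its brightest probe set (1417155_at) read 2130.4 and 2100.2 in the knockdown and 1808.6 and 1948.6 in the control. The knockdown arrays were both above the control arrays, but the log2 difference of 0.17 ± 0.07 (SE), with a 95% interval of 0.01 to 0.33, did not pass the test over all genes (limma, adjusted p = 0.138). A second probe set (1425922_a_at) had the other sign, with 379.8 and 300.6 in the knockdown and 418.0 and 412.8 in the control. Tested with every probe set by itself, its log2 difference was -0.28 ± 0.12 (SE; adjusted p = 0.169). Among the alternatives it passed only without knockdown replicate 1, at -0.44 (adjusted p = 0.0414). The third (1425923_at) was dim, at 15.5 and 3.1 in the knockdown and 1.8 and 6.2 in the control. The bright Mycn probe set passed with quantile normalization, at 0.24 (adjusted p = 0.0401), and with the arrays scaled to their spike-ins, at 0.48 (adjusted p = 0.0473), so no direction is given for Mycn. Whether the differences of Myc and Mycn themselves differ was not tested.

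Mycl encodes L-MYC, a paralog with weaker transforming activity than c-MYC. It was dim in these cells. Its brightest probe set (1434777_at) read 40.5 and 48.3 in the knockdown, against 73.8 and 80.6 in the control. Both knockdown arrays lay below both control arrays, with averages of 44.4 ± 5.52 for knockdown and 77.2 ± 4.81 for control arrays (SD, n = 2 each). The log2 difference was -0.60 ± 0.15 (SE), with a 95% interval of -0.93 to -0.26 (limma, adjusted p = 0.0276), and the fall was 1.51-fold on this scale. The second probe set (1422087_at) read 26.0 and 31.0 in the knockdown and 45.9 and 49.2 in the control, again without overlap, a log2 difference of -0.48 ± 0.16 (SE; adjusted p = 0.0929 with every probe set by itself). The third (1422088_at) read 14.7 and 35.2 in the knockdown and 34.8 and 47.8 in the control and overlapped, with the same difference of -0.48 ± 0.24 (SE; adjusted p = 0.228). All 3 probe sets had the same sign, and 1 of them passed. With a pseudocount of 6 or 60 in place of 20, the log2 difference of the first was -0.73 or -0.39, and the call held. With the arrays scaled to their spike-ins it was -0.36 and the call was lost (adjusted p = 0.208), as it was without the filter on dim genes (0.100).

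The stretch upstream of the annotated start of Mycl is shown because Mycl is the member that fell. It is taken from RefSeq, build GRCm38.p6, written 5′ to 3′ on the strand of the gene, from 250 bases before the start to the base just before it. Capitals mark CACGCG, a site related to the E-box, whose first base lies 20 bases before the start; the search covered both strands, as CACGCG or CGCGTG. No CACGTG was found in this window.
Mycl (chr4:122995681-122995930, plus strand): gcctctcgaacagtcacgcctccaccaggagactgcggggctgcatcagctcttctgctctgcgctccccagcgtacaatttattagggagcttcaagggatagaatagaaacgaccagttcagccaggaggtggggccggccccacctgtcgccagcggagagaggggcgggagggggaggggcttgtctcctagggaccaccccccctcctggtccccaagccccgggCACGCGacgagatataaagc

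**Figure D2:**
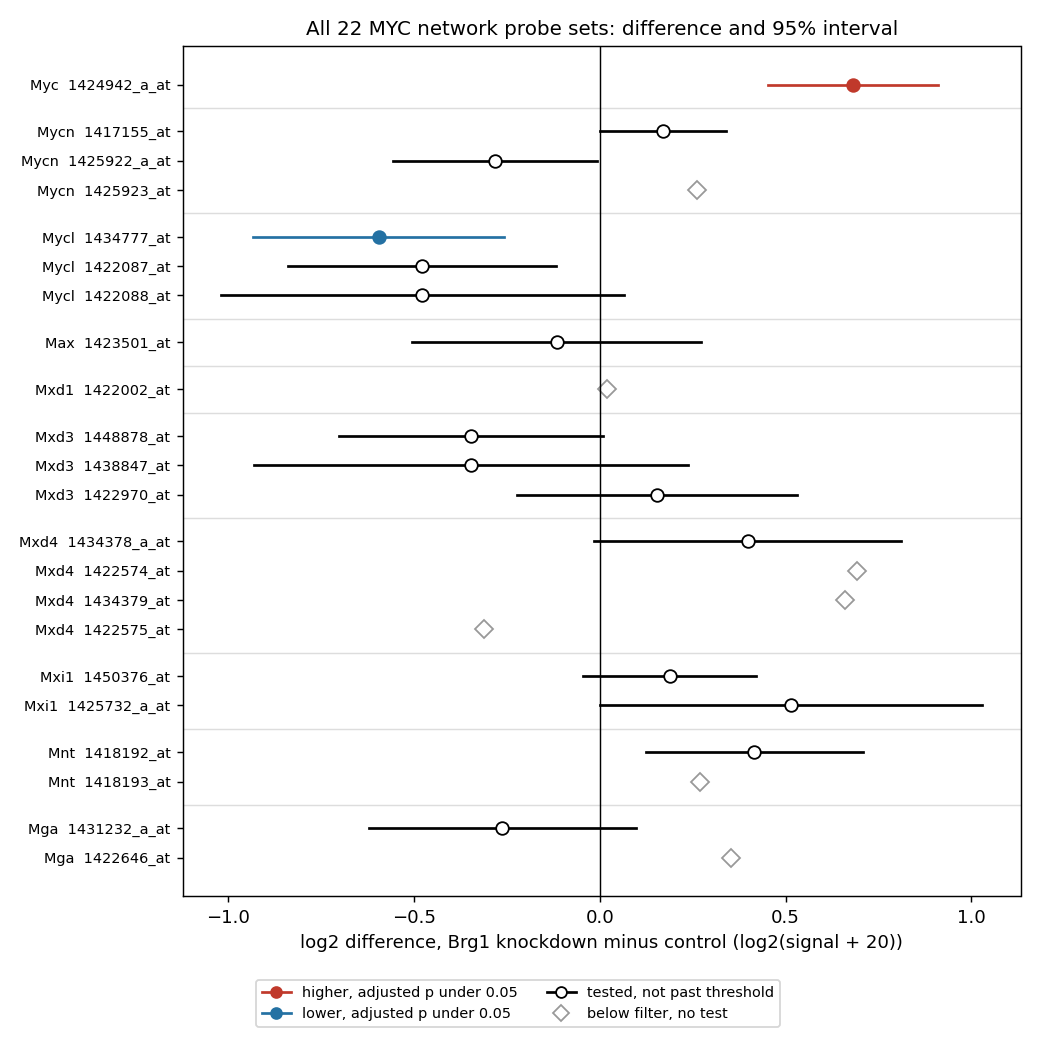
Log2 difference, knockdown minus control, of all 22 MYC network probe sets (points), with the 95% interval of the limma fit over every probe set by itself where a probe set was bright enough to test; diamonds are untested probe sets. The single Myc probe set lies above 0, the 3 Mycl probe sets lie below 0, and Mycn, Mxd3, Mxd4 and Mga each have probe sets on both sides of 0.

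Of the 22 probe sets, 15 were bright enough to be tested by themselves, and 1 was higher, 1 lower and 13 not past the threshold. Over all 13576 probe sets tested this way, 9.13% were called, 5.76% higher and 3.37% lower. The other 7 probe sets lay below the filter. The 2 called ones were again those of Myc (adjusted p = 0.00598) and the brightest of Mycl (adjusted p = 0.0421). In this fit the Mycl probe set lost its call whichever of the 4 arrays was left out, and the Myc probe set kept it.

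Max encodes the shared partner with which these factors bind E-boxes. Its only probe set (1423501_at) read 24.2 and 31.9 in the knockdown and 33.8 and 30.1 in the control, near the filter, and the groups overlapped. The log2 difference was -0.12 ± 0.17 (SE), with a 95% interval of -0.50 to 0.27 (limma, adjusted p = 0.686). A fall as large as the difference of Mxd3 lies within that interval, so these arrays do not show that Max was constant.

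The MXD repressors did not pass the test in either direction. Mxd1, known from cells that leave the cell cycle, read 1.7 and 2.0 in the knockdown and 2.0 and 1.1 in the control and was not tested. Mxd3, which is known for its expression in S phase, read 47.3 and 38.3 in the knockdown and 62.9 and 56.6 in the control on its brightest probe set. These groups did not overlap, with a log2 difference of -0.35 ± 0.16 (SE; adjusted p = 0.160 by limma). Its other probe sets read 35.1 and 24.0 in the knockdown against 27.7 and 62.1 in the control, and 34.8 and 42.1 in the knockdown against 35.4 and 29.7 in the control, with differences of -0.35 and 0.15 that did not pass (adjusted p = 0.416 and 0.584). The first of these rests on control replicate 2: without that array the difference was 0.05.

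Mxd4 read 28.1 and 35.2 in the knockdown and 22.6 and 15.9 in the control on the probe set that was tested (1434378_a_at). The arrays did not overlap, and the log2 difference of 0.40 ± 0.18 (SE) did not pass (limma, adjusted p = 0.173). It reached the filter through its knockdown arrays, since the control mean of 19.2 lies below 23.9. Its 3 dimmer probe sets were not tested. The first read 23.1 and 34.0 in the knockdown and 15.0 and 5.5 in the control, and the second 22.3 and 21.3 in the knockdown and 1.6 and 12.4 in the control, both without overlap. The third had the other sign, with 11.6 and 4.7 in the knockdown and 17.3 and 12.2 in the control. Mxi1, a repressor of the same family, read 316.1 and 293.5 in the knockdown and 259.9 and 270.1 in the control, a log2 difference of 0.19 ± 0.10 (SE; adjusted p = 0.233). Its second probe set read 74.5 and 106.4 in the knockdown and 75.0 and 41.6 in the control, overlapping, with a difference of 0.51 ± 0.23 (SE; adjusted p = 0.178 with every probe set by itself). That second probe set passed with the spike-in scaling, at 0.76 (adjusted p = 0.00554).

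Mnt encodes a broadly expressed repressor that competes with MYC for MAX. Its signal was 238.4 and 224.3 in the knockdown, against 151.0 and 187.3 in the control, and the arrays did not overlap. The log2 difference was 0.42 ± 0.12 (SE), or 1.33-fold, with a 95% interval of 0.14 to 0.69. It missed the threshold by little (limma, adjusted p = 0.0511). It passed in 5 of 15 alternatives, among them the filter at the 60th percentile (adjusted p = 0.0493), the spike-in scaling (0.0116) and the fit without control replicate 2. The others used the replicate number as a block, as labelled or crossed, although the numbers do not pair the samples. Without control replicate 1 the difference was 0.28 (adjusted p = 0.257). A dim second probe set read 17.1 and 14.4 in the knockdown and 8.1 and 11.3 in the control.

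Mga encodes the scaffold of PRC1.6. Its signal was 169.2 and 120.4 in the knockdown and 186.5 and 165.2 in the control. These ranges overlapped, and the log2 difference of -0.26 ± 0.15 (SE) did not pass (limma, adjusted p = 0.272). The second probe set, below the filter, had the other sign, with 23.8 and 31.4 in the knockdown and 20.6 and 14.0 in the control. The mean of both probe sets gave 0.04 (adjusted p = 0.846).

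RefSeq promoter windows, from 250 bases before to 50 bases after an annotated start, were found for 9 of the 10 members, with 3 starts for Mxi1; Myc was not among them. The E-box CACGTG, which reads the same on both strands, was present in 3 of the 9, those of Max, Mxd4 and Mnt. Over all genes with a window, 8.09% hold it, and over all 32851 windows 7.15%. Among tested genes with a window the share is 12.74%, and of the 8 tested members with a window 3 hold it. The related site CACGCG (or CGCGTG) was present in 2 of the 9, those of Mycl and Mga, against 10.49% of all genes with a window. These sites are shown because they are the sequence that MYC and MAX proteins bind, here in genes of the network itself. Each line gives 60 bases on the strand of the gene, 5′ to 3′, from RefSeq build GRCm38.p6, with CACGTG in capitals; its first base lies 3 bases before the start of Max, 219 before that of Mxd4 and 123 before that of Mnt. A match is a description of the letters only.
Max (chr12:76962219-76962278, minus strand): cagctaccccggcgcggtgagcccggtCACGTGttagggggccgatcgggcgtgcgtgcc
Mxd4 (chr5:34187897-34187956, minus strand): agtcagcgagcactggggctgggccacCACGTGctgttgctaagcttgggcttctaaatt
Mnt (chr11:74830774-74830833, plus strand): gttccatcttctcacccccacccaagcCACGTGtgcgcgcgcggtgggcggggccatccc

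None of the 3 members with the E-box passed the test, and their log2 differences were -0.12 for Max, 0.40 for Mxd4 and 0.42 for Mnt. Among the 6387 tested genes with a window, 814 held CACGTG. Of these, 10.44% were higher and 4.18% lower in the knockdown, against 9.08% and 5.15% of the 5573 genes without it, with median log2 differences of 0.05 with the E-box and 0.03 without it. No test was made of this difference.

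**Figure D3:**
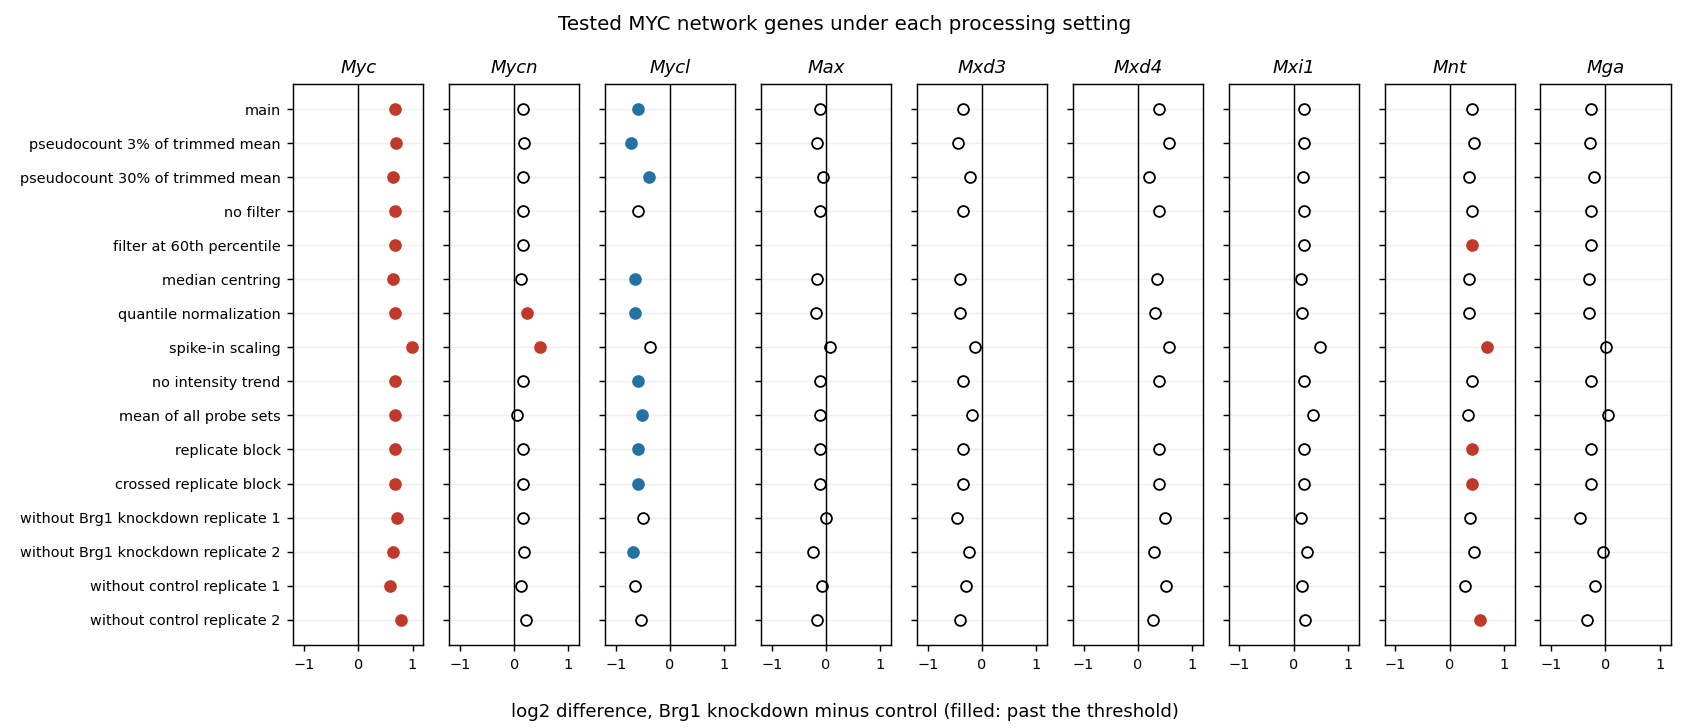
Log2 difference, knockdown minus control, of each tested MYC network gene (panels) under the processing used in the text and each alternative (rows); filled points passed an adjusted p of 0.05, red higher and blue lower, and a missing point means that the gene was not tested there. Myc is filled in all 15 alternatives, Mycl in 9 of the 14 in which it was tested and Mnt in 5 of 15, and Max, Mxd3, Mxd4, Mxi1 and Mga are filled in none. The alternatives include the replicate number as a block, as labelled and crossed, although the numbers do not pair the samples.

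The genes around the network were described by lists, with no test of a list. Of 130 tested genes in 9 lists outside the members, 22 (16.9%) were called, against 14.4% of all tested genes. Of the 21 of these named by the rule, 6 kept their call without each array in turn: Tfeb, Kat2a, Ddx4, Stag3, Thbs1 and Btg2. The other 15 lost it without at least 1 array. All 9 falls among the 21 lost their call with the arrays scaled to their spike-ins, without the filter on dim genes and without the intensity trend of the variance model. Of the 12 rises, 0 lost it with the spike-in scaling, 8 without the filter and 5 without the trend. Kat2a, Stag3, Thbs1 and Btg2 kept their call under all 3 of these settings.

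MLX pairs with MLXIP and MLXIPL in a glucose-sensing branch of the network. The list joins this branch with other E-box factors, such as Tfeb, Srebf1 and Tfap4. Of its 13 tested genes, 1 was higher, 0 lower and 12 did not pass (median log2 difference 0.11). Thus 7.69% were called, against 14.4% of all tested genes. Mlx, Mlxip and Mlxipl were among those that did not pass. Tfeb, a regulator of lysosomal genes, rose to 133.0 and 133.8 in the knockdown, against 81.4 and 67.9 in the control, which is 0.70 ± 0.13 on the log2 scale (SE; adjusted p = 0.00872 by limma). Mlxipl, of the MLX branch, had a difference of 0.33 (adjusted p = 0.197). Outside that branch, Srebf1 had a difference of 0.41 (0.166) and Tfap4 of -0.27 (0.245). Srebf1 passed without control replicate 2, at 0.75 (adjusted p = 0.00232).

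Among the cofactors of MYC and of the MXD repressors, 3 of 19 tested genes were higher, 2 lower and 14 not past the test (median 0.11). The share called was 26.3%, against 14.4% of all tested genes. With 19 genes this difference is not read as a trait of the list. Kat2a, the acetyltransferase GCN5, read 698.0 and 781.1 in the knockdown, against 466.0 and 533.7 in the control, which is 0.55 ± 0.10 on the log2 scale (SE; adjusted p = 0.00741 by limma). Trrap, the scaffold of the GCN5 and TIP60 complexes, read 477.6 and 483.7 in the knockdown and 373.1 and 336.6 in the control (0.42 ± 0.09; adjusted p = 0.0195). It was no longer called without knockdown replicate 2 (0.0658) or control replicate 2 (0.0723). Supt5, the elongation factor SPT5, rose by 0.34 (adjusted p = 0.0241), a call lost without knockdown replicate 2 (0.144) or control replicate 1 (0.0614). Hdac2, a histone deacetylase, read 230.5 and 172.9 in the knockdown and 295.0 and 300.6 in the control (-0.53 ± 0.13; adjusted p = 0.0275), and it was no longer called without knockdown replicate 2 (0.139) or with the spike-in scaling (-0.25; 0.394). Sin3a, the scaffold that MXD proteins bind, chosen after its values were seen, read 596.3 and 632.6 in the knockdown and 779.5 and 764.1 in the control (-0.32; adjusted p = 0.0325), and lost its call whichever array was left out (adjusted p of 0.0640 to 0.105) and with the spike-in scaling (-0.02; 0.956). Their paralogs Sin3b and Hdac1, also chosen after their values were seen, had differences of 0.19 (adjusted p = 0.197) and 0.11 (0.360).

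Of 12 tested genes for the turnover of MYC protein, 1 was higher, 1 lower and 10 not past the test (median 0.02). That is 16.7% called, close to the 14.4% of all tested genes. Trim32, a ubiquitin ligase known in mouse neural progenitors to target c-MYC, read 209.8 and 209.2 in the knockdown, against 128.0 and 159.9 in the control (0.49 ± 0.13 SE; limma, adjusted p = 0.0309). It was no longer called without knockdown replicate 1 (0.0550), knockdown replicate 2 (0.0758) or control replicate 1 (0.151). Cip2a, an inhibitor of the phosphatase PP2A that stabilises MYC, read 167.9 and 119.8 in the knockdown and 203.8 and 225.6 in the control (-0.53 ± 0.15 SE; adjusted p = 0.0416). This call rested on knockdown replicate 2 (0.209 without it) and control replicate 2 (0.103), and with the mean of all its probe sets the difference was -0.26 (0.208). Fbxw7, the main ubiquitin ligase for phosphorylated MYC, had a difference of 0.34 (adjusted p = 0.0742) and Gsk3a, a kinase that marks MYC for FBXW7, of 0.36 (0.0788). Gsk3a passed without knockdown replicate 1, at 0.52 (0.0143). MYC protein was not measured.

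Of 11 tested PRC1.6 subunits, Mga and Max included, 0 were higher, 1 was lower and 10 did not pass (median 0.01). That is 9.09% called, against 14.4% of all tested genes. The lower one was Hdac2, shared with the cofactor list. Rnf2, the ubiquitin ligase of PRC1, read 754.1 and 753.1 in the knockdown and 638.6 and 602.4 in the control (0.27 ± 0.08 SE; limma, adjusted p = 0.0549). Pcgf6, the subunit that defines PRC1.6, had a difference of 0.17 (adjusted p = 0.199), with the other sign, -0.06, when all its probe sets were averaged.

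Of 15 germline genes on the array that MAX or PRC1.6 is known to hold silent in ES cells, 11 lay below the filter, and among the 4 tested 2 were higher, 1 lower and 1 not past the test. Genes that are dim in the control and bright in the knockdown reach the filter more easily, so these counts support nothing about the list. Stag3, a meiotic cohesin, read 144.3 and 146.5 in the knockdown, against 78.3 and 78.6 in the control (0.75 ± 0.12 SE; limma, adjusted p = 0.00451). Ddx4, the germ cell helicase VASA, read 130.9 and 121.4 in the knockdown and 78.1 and 77.0 in the control (0.58 ± 0.13; adjusted p = 0.0159). Sycp3, of the synaptonemal complex, went the other way, with 79.9 and 51.7 in the knockdown and 106.4 and 118.9 in the control (-0.65 ± 0.17; adjusted p = 0.0355), and was no longer called without knockdown replicate 2 (0.159) or control replicate 2 (0.0969). Dazl, an RNA-binding protein of germ cells, read 33.3 and 32.3 in the knockdown and 18.6 and 18.7 in the control (0.45; adjusted p = 0.104). It reached the filter only through its knockdown arrays, since both control values lie below 23.9. Stag3, Ddx4 and Sycp3 each hold CACGTG in their promoter window, and Dazl does not. Of all tested genes with a window, 12.74% hold it. The 11 genes below the filter were not included here, so no link between the E-box and these calls is drawn.

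Of the genes that MYC is known to activate, a share close to that of all tested genes was called. More of them lay below 0 than above. Over the 3 lists together, 61 genes were tested, 2 were higher, 5 lower and 54 not past the test, so 11.5% were called against 14.4% of all tested genes. All 61 differed by less than 0.5 on the log2 scale. In 44 of them (72.1%) the difference lay below 0, against 44.6% of all tested genes, and their median was -0.06 against 0.04. With the arrays scaled to their spike-ins the medians of the 3 lists were 0.23, 0.23 and 0.26. These lie below the median of 0.31 over all genes, so the sign of these small differences rests on the scaling. With quantile normalization the nucleolar, metabolic and cell cycle medians were -0.05, -0.07 and -0.005, against 0.015 over all genes. With the mean of all probe sets they were -0.003, -0.13 and -0.09, against 0.02.

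Of 23 nucleolar and ribosome biogenesis genes, 1 was higher, 2 lower and 20 not past the test (median -0.07). Thus 13% were called, close to the 14.4% of all tested genes. Gnl3, the nucleolar protein nucleostemin, read 1645.3 and 1559.6 in the knockdown, against 2193.0 and 1824.2 in the control (-0.32 ± 0.09 SE; limma, adjusted p = 0.0482). Nop56, of the box C/D ribonucleoprotein, read 1671.1 and 1561.3 in the knockdown and 1931.0 and 1927.7 in the control (-0.25 ± 0.07; adjusted p = 0.0446). With the spike-in scaling Gnl3 was at -0.01 (adjusted p = 0.973) and the sign of Nop56 turned, to 0.05 (0.847). Nop56 lost its call whichever array was left out (adjusted p up to 0.226), and Gnl3 was no longer called without knockdown replicate 1 (0.0514), knockdown replicate 2 (0.163) or control replicate 1 (0.256). Polr1b, a subunit of RNA polymerase I, rose by 0.35 ± 0.09 (adjusted p = 0.0275), a call lost without knockdown replicate 2 (0.168) or control replicate 1 (0.0627), and Ubtf, a factor for the same polymerase, had a difference of 0.29 (0.0617). Ubtf passed without control replicate 2, at 0.39 (0.0294).

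Of 21 metabolic genes, 1 was higher, 3 lower and 17 not past the test (median -0.08). Thus 19% were called, against 14.4% of all tested genes, and with 21 genes this difference is not read as a trait of the list. Cad, which starts pyrimidine synthesis, read 1364.2 and 1344.0 in the knockdown, against 953.9 and 1096.6 in the control (0.40 ± 0.09 SE; limma, adjusted p = 0.0159), a call lost without control replicate 1 (0.0681). Ldha, lactate dehydrogenase, read 4332.3 and 4413.9 in the knockdown and 5579.0 and 5142.4 in the control (-0.29 ± 0.06; adjusted p = 0.0182). Prps2, of nucleotide precursor synthesis, fell by 0.39 (adjusted p = 0.0323) and Got1, an aminotransferase, fell by 0.29 (0.0405) on the log2 scale. Prps2 lost its call whichever array was left out (adjusted p up to 0.116). Ldha was no longer called without knockdown replicate 1 (0.0505) or control replicate 1 (0.0875), and Got1 likewise (0.150 and 0.152). With the spike-in scaling the signs of both turned, to 0.02 for Ldha and 0.01 for Got1, and Prps2 was at -0.10 (adjusted p = 0.749). Odc1, the polyamine enzyme long used as a MYC target and chosen after its values were seen, read 3646.9 and 3712.4 in the knockdown and 3530.2 and 3485.2 in the control, a difference of 0.07 (adjusted p = 0.486).

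None of 17 cell cycle, translation and chaperone genes passed the test with limma (0 higher, 0 lower; median -0.05). At an unadjusted p under 0.05, 1 of them differed, Riox2. Cdk4, the G1 kinase, had a difference of -0.09 (adjusted p = 0.461), Ccnd2, a D-type cyclin, of -0.26 (0.230), Pa2g4, a growth-regulated RNA-binding protein, of -0.10 (0.349), and Riox2, a nucleolar oxygenase, of 0.22 (0.112).

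**Figure D4:**
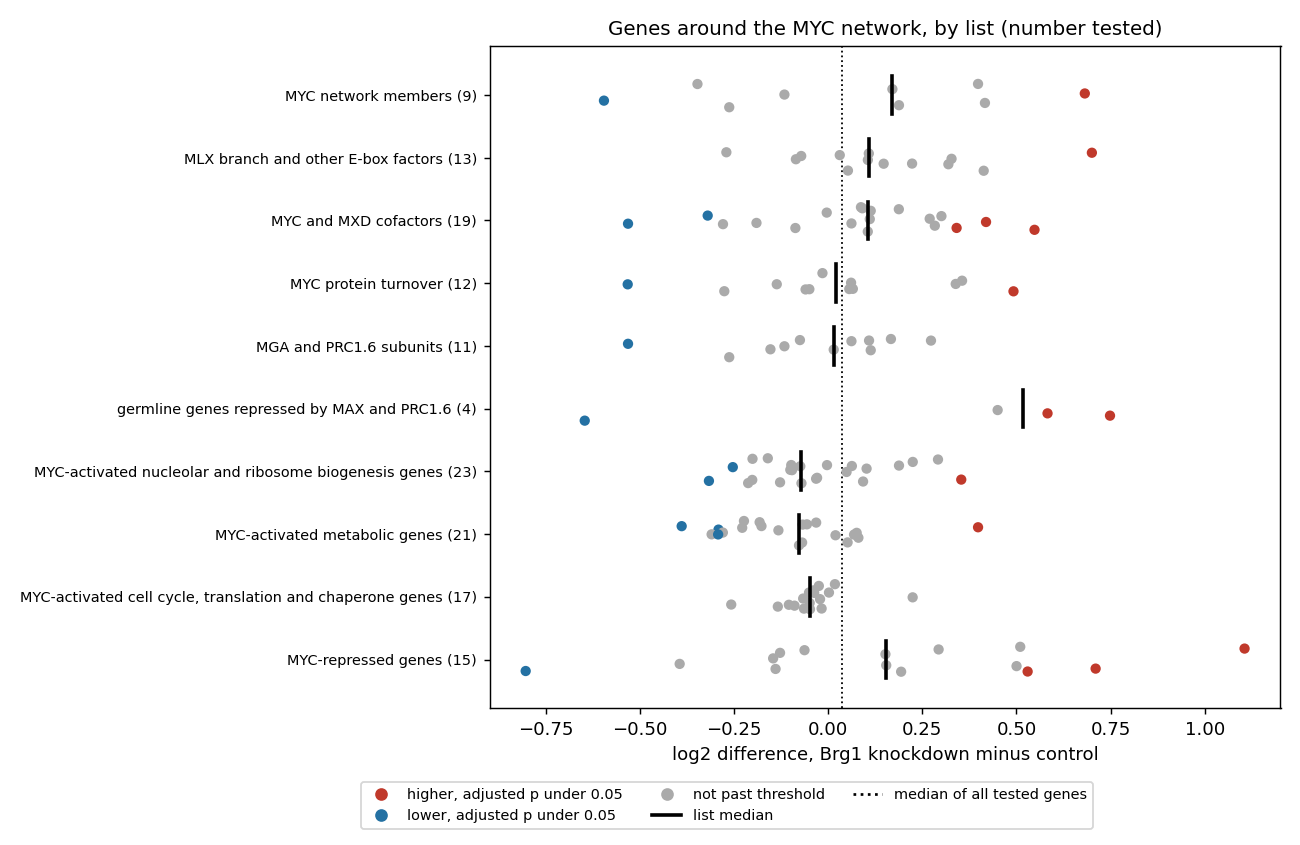
Log2 difference, knockdown minus control, of each tested gene in the MYC network and in the 9 lists around it (points; red called higher, blue called lower, grey not past the threshold), with each list's median as a bar and the median of all tested genes, 0.04, as a dotted line. All 61 MYC-activated genes sit within 0.5 of 0, and their 3 list medians lie between -0.08 and -0.05.

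Genes that MYC is known to repress gave 3 rises, 1 fall and 11 not past the test among 15 tested, with 5 more below the filter (median 0.15). The share called was 26.7%, against 14.4% of all tested genes. With 15 genes this difference is not read as a trait of the list. Thbs1, the secreted matrix protein thrombospondin 1, read 141.8 and 130.3 in the knockdown, against 50.0 and 55.0 in the control, which is 1.11 ± 0.13 on the log2 scale (SE; adjusted p = 0.000901 by limma). Gadd45g, a stress-induced growth inhibitor, read 64.3 and 71.3 in the knockdown and 31.9 and 35.4 in the control (0.71 ± 0.15; adjusted p = 0.0147), and was no longer called without knockdown replicate 2 (0.0531) or control replicate 1 (0.0652). Btg2, an antiproliferative p53 target, rose by 0.53 ± 0.11 (adjusted p = 0.0114). Cdkn1b, the cyclin-dependent kinase inhibitor p27, went the other way, with 84.0 and 63.8 in the knockdown and 109.2 and 185.5 in the control (-0.80 ± 0.21; adjusted p = 0.0324). It was no longer called without knockdown replicate 2 (0.0884) or control replicate 2 (0.141), and with all its probe sets averaged the difference was -0.31 (0.218).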

How the data were processed

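RNA (5 µg per sample) was labelled, and the labelled product was hybridised to Affymetrix arrays. The authors deposited a linear intensity for each probe set, made with GCOS per the submitters' processing notes; for its version and settings, nothing is stated in the labels. From the deposited values, log2(signal + 20) was computed without further normalization; the pseudocount is 10% of the trimmed mean. Genes were named through the platform annotation, each by its probe set of highest mean. Genes under the 40th percentile on average were not tested. The groups follow the labels (n = 2 each), and limma 3.58.1 in R 4.3.3 (lmFit, eBayes with an intensity trend) was fitted over all genes, and again over all probe sets, with Benjamini-Hochberg adjustment. The number of arrays limits the precision. Levels of different probe sets are not comparable. The fit was checked on simulated data.

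The members and lists were chosen with earlier results of these data known. Named were all members, both shRNA targets, and from each other list up to 4 tested genes of smallest p; Pou5f1 and the dim marker genes were chosen after their values were seen. Alternatives changed the pseudocount, filter, scaling, variance model, probe set rule, threshold, replicate block and arrays included.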

Additional observations from a re-analysis of the deposited data

How the results depend on the processing

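Of 7815 genes, 1127 were called, against 433 of all 12393 without the filter on dim genes, 393 at a threshold of 0.01 and 601 to 1171 leaving out each array in turn (719 without control replicate 1, 601 without knockdown replicate 2). The 2 members called became 1, Myc, without the filter or at 0.01. With the filter at the 60th percentile the 2 called were Myc and Mnt. With quantile normalization Myc, Mycl and Mycn were called, and with spike-in scaling Myc, Mycn and Mnt. The 2 member probe sets called became 1 without the filter, with the filter at the 60th percentile or at 0.01, 4 with spike-in scaling, and 1 to 2 leaving out arrays. The 22 pathway genes called became 4 without the filter, 9 without the intensity trend, 4 at 0.01 and 9 to 19 leaving out arrays (9 without knockdown replicate 2, 13 without control replicate 1). The cause was not tested, except that the filter sets how many genes are tested. Calls split 729 higher to 398 lower, but 622 to 598 with median centring and 1478 to 37 with spike-in scaling, which moves the median of all genes to 0.31. That scaling turned the sign of Max (0.0759), Mga (0.0112), Tfap4 (0.0018), Nop56 (0.0537), Ldha (0.0179), Got1 (0.0140), Ccnd2 (0.0119), Cdk4 (0.22), Pa2g4 (0.20) and the second Mycn probe set (0.0120). Averaging probe sets turned Mga (0.0450) and Pcgf6 (-0.0614), and leaving out each array gave 1 Mxd3 probe set -0.738 to 0.0458, turned without control replicate 2. With the replicate number as a block, 1187 genes and 3 members were called, Mnt joining at an adjusted p of 0.0480; deviations of same-numbered arrays correlated at -0.14 over genes, so the numbers do not pair the samples. With the numbers crossed, chosen after seeing the data, 1478 genes, 3 members, 4 member probe sets and 30 pathway genes were called. Dim members (Mxd1, Max, Mxd4) are limited by signal over background.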
